A study of Mus musculus with 6 samples.

Results

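The BCL-2 family proteins decide at the mitochondrion whether a cell survives, and the transcripts of 10 of its regulators were listed for study: Bcl2, Bcl2l1, Mcl1, Bax, Bak1, Bcl2l11, Bid, Bad, Bbc3 and Pmaip1. Each was taken from the probe set that named it and no other gene in the platform's probe table, and 9 of the 10 had such a probe set, each exactly 1, among 19938 genes in all. No probe set in that table named Bax, so this gene was not analysed here. RNA came from splenic T cells of 6 B6D2F1/J mice, an F1 hybrid strain, which had been lethally irradiated and reconstituted with T cell-depleted B6 bone marrow. Of these mice, 3 were injected intraperitoneally with rapamycin, an inhibitor of the kinase mTOR, at 1.5 mg/kg every second day until day 10, and 3 were injected with PBS on the same schedule. The protocol covers recipients with and without B6 spleen cells added to the graft, and the labels do not say which holds for each mouse. Cells were sorted by flow cytometry on CD3 alone on day 10, so CD4+ and CD8+ T cells were measured together, and the labels do not say whether the sorted cells were of donor or recipient origin. Each mouse gave 1 whole-transcript array, and values are log2 expression, on which a difference of 1 is a doubling. Levels of different probe sets are not comparable with each other, so only differences of the same probe set between mice are read, always as rapamycin minus PBS.

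As background, the family works through 3 kinds of protein. The anti-apoptotic members BCL2, BCL-xL (encoded by Bcl2l1) and MCL1 hold the effectors BAX and BAK in check. When the effectors are released they open the outer mitochondrial membrane, and cytochrome c then starts the caspase cascade. The BH3-only proteins BIM (Bcl2l11), BID, BAD, PUMA (Bbc3) and NOXA (Pmaip1) bind the anti-apoptotic members and, for some of them, the effectors directly. In T cells, BCL2 and MCL1 sustain survival under IL-7 and other cytokines, and BIM is a principal mediator of the death of activated cells after an immune response. FOXO transcription factors, which the kinase AKT keeps out of the nucleus, are known activators of Bcl2l11 and Bbc3, and this links the family to the PI3K, AKT and mTOR network.

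The 2 promoter stretches below come from the promoter windows of the listed genes that held the motif given next. Bcl2l11 and Bbc3 are also the members of the family best known as FOXO targets. Both their transcripts and that of Foxo1 are described further on. Capitals mark the motif GTAAACA, the core sequence that FOXO proteins bind, or its reverse complement TGTTTAC. The sequences are from RefSeq, build GRCm38.p6, plus strand, 5′ to 3′.
Bcl2l11, chr2:128125788-128125847: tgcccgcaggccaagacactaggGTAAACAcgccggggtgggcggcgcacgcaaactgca
Bbc3, chr7:16310064-16310130: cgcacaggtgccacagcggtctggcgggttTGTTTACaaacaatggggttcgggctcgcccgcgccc
The motif began 227 bases before an annotated start of Bcl2l11 and 167 bases before an annotated start of Bbc3. Both strands of the 250 bases before each start were searched. The listed genes other than Pmaip1 had 15 promoter windows in the RefSeq table, and 2 of these held the motif, 1 for each gene shown. Bcl2l11 had 2 windows and Bbc3 had 3, so both genes also had an annotated start without the motif. Of all promoter windows in that table, a share of 3.17% held it. The match describes the sequence and was not tested for binding.

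No difference between rapamycin and PBS mice passed limma's moderated test across all genes for any of the 9 measured BCL-2 family transcripts: 0 members passed an adjusted p of 0.05 in either direction and 0 had an unadjusted p under 0.05. Over all 19938 genes, 0.00502% passed, which is the Glp1r probe set, and 4.67% had an unadjusted p under 0.05. The differences were small, 5 positive and 4 negative, with a median of 0.0060 against -0.01 over all genes. Of the 9, 7 lay within 0.1 log2 of no difference, as did 67.1% of all genes. The 95% intervals together ran from -0.45 for Bid to 0.47 for Bcl2, which is 0.732-fold to 1.39-fold, and most members' intervals were narrower, as given with each gene below. All 9 had an adjusted p of 0.9998. Because these are whole sorted populations, fewer cells of a type and less RNA per cell cannot be told apart.

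**Figure D1:**
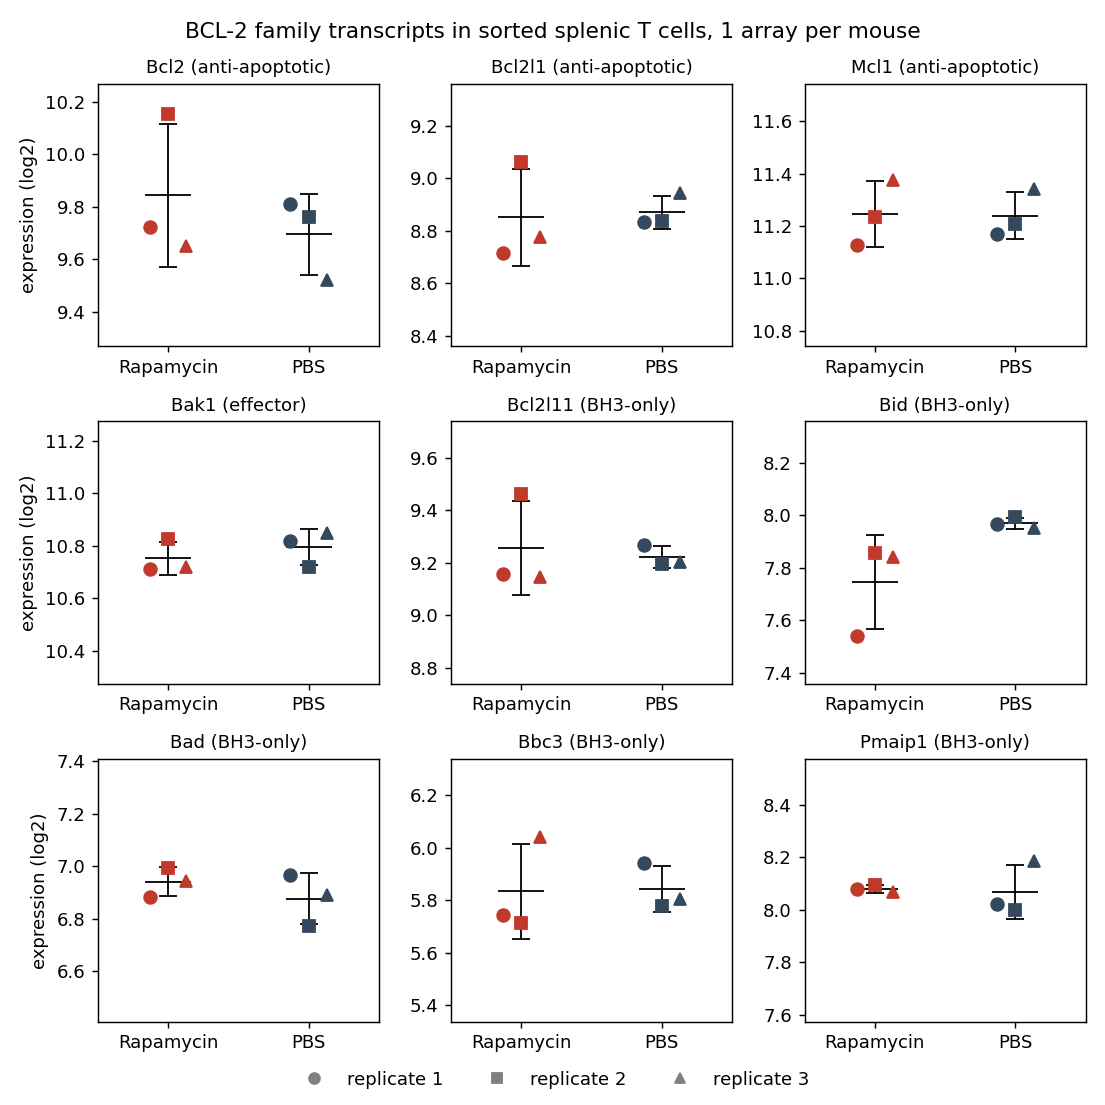
Expression (log2) of 9 BCL-2 family transcripts in each mouse, rapamycin left and PBS right, with marker shape for the replicate number and the bar with caps for mean and SD (n = 3 each); every panel spans 1 log2. The groups overlap in 8 panels, and in the Bid panel all rapamycin mice lie below all PBS mice.

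Among the anti-apoptotic genes, Bcl2, the founding survival factor of the family, measured 9.72, 10.15 and 9.65 in rapamycin mice, against 9.81, 9.76 and 9.52 in PBS mice. The groups overlapped, and the highest value belonged to rapamycin replicate 2. The means were 9.84 ± 0.27 with rapamycin and 9.70 ± 0.15 with PBS (SD, n = 3 each), a difference of 0.15 (SE 0.14, 95% interval -0.18 to 0.47). Without rapamycin replicate 2 the difference was -0.0080. Bcl2l1, whose main product BCL-xL protects activated T cells, measured 8.71, 9.06 and 8.78 in rapamycin mice, against 8.83, 8.84 and 8.94 in PBS mice. Here too rapamycin replicate 2 lay above every PBS mouse, while the other rapamycin mice lay below them all. The difference was -0.02 (SE 0.10, interval -0.26 to 0.22). Mcl1, a short-lived survival protein on which T cells depend throughout life, measured 11.13, 11.23 and 11.38 in rapamycin mice, against 11.17, 11.21 and 11.34 in PBS mice. The ranges all but coincided, with a difference of 0.0060 (SE 0.09), and its interval of -0.20 to 0.22 is 0.868-fold to 1.16-fold. MCL1 is also controlled by its rate of translation and by proteasomal degradation, neither of which an RNA measurement sees.

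Of the effectors, Bak1 was measured. It encodes BAK, which sits in the outer mitochondrial membrane and forms pores once activated. Bak1 measured 10.71, 10.83 and 10.72 in rapamycin mice, against 10.82, 10.72 and 10.85 in PBS mice. All 6 values lay within 0.14 log2 of each other, the narrowest span of the 9 members. The difference was -0.04 (SE 0.08, interval -0.22 to 0.14).

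Among the BH3-only genes, Bcl2l11, encoding BIM, measured 9.16, 9.46 and 9.15 in rapamycin mice, against 9.27, 9.20 and 9.20 in PBS mice. The PBS mice lay close together, rapamycin replicate 2 lay above them and the other rapamycin mice lay below them. The difference was 0.03 (SE 0.10, interval -0.20 to 0.26), and it was -0.07 without rapamycin replicate 2. Bbc3, encoding PUMA, which p53 also induces, measured 5.74, 5.71 and 6.04 in rapamycin mice, against 5.94, 5.78 and 5.80 in PBS mice. These values lie near or below the array medians of 6.03 to 6.17, a range in which RMA compresses differences, and whether the probe set was above background was not tested. The difference was -0.0087 (SE 0.11, interval -0.25 to 0.23). So for neither gene whose promoter stretch is shown above was a difference detectable at this precision.

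Bid encodes the BH3-only protein that caspase-8 cleaves, carrying a death receptor signal to the mitochondrion. It measured 7.54, 7.86 and 7.84 in rapamycin mice, against 7.96, 7.99 and 7.95 in PBS mice. All rapamycin values lay under all PBS values, and that of rapamycin replicate 1 lay farthest below. Bid was the 1 member of 9 whose groups did not overlap, a separation seen in 9.42% of all genes, with rapamycin on the lower side in 6.28% and on the higher side in 3.14%. The means were 7.75 ± 0.18 with rapamycin and 7.97 ± 0.02 with PBS (SD, n = 3 each). The difference of -0.22 (SE 0.10, interval -0.45 to 0.0044) did not pass, with an unadjusted p of 0.0537 in limma's test. It lay between -0.28 and -0.12 when single mice were left out, the smallest without rapamycin replicate 1.

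Bad encodes a BH3-only protein that AKT and other kinases inactivate by phosphorylation. Bad measured 6.88, 6.99 and 6.94 in rapamycin mice, against 6.97, 6.77 and 6.89 in PBS mice, a difference of 0.06 (SE 0.08, interval -0.12 to 0.25). Pmaip1 encodes NOXA, which antagonises MCL1 in particular. Its values were 8.08, 8.09 and 8.07 in rapamycin mice, against 8.02, 7.997 and 8.19 in PBS mice, a difference of 0.01 (SE 0.08, interval -0.17 to 0.19). In both genes the groups overlapped, and for Pmaip1 the rapamycin mice lay inside the PBS range.

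**Figure D2:**
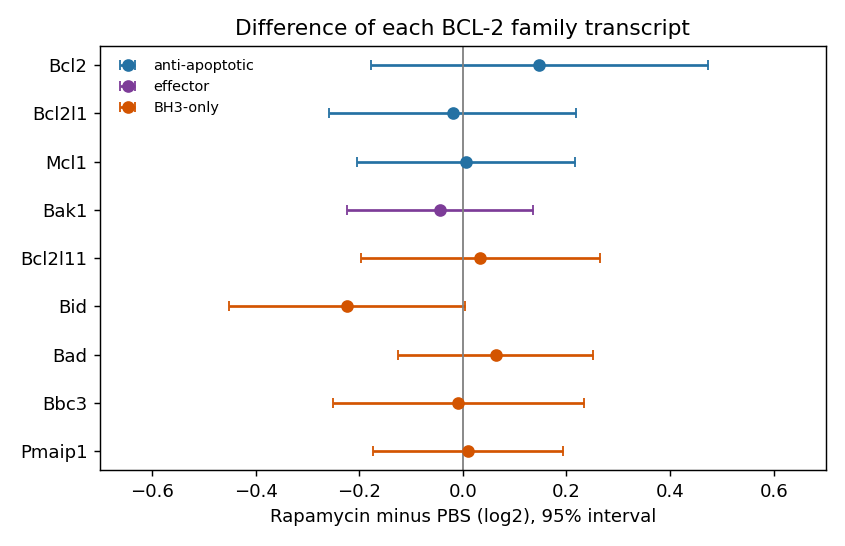
Difference of each transcript (rapamycin minus PBS, log2, points) with its 95% interval from limma (bars), coloured by the role of the protein. All 9 intervals include 0; that of Bid reaches from -0.45 to 0.0044.

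In 8 of the 9 members the difference between the groups was smaller than the larger of both group SDs, and Bid was the exception. The SD was larger among rapamycin mice in 6 of the 9 members, as in 55.4% of all genes. For Bcl2l11 it was 0.18 with rapamycin and 0.04 with PBS, and for Bid 0.18 and 0.02. Pmaip1 went the other way, with 0.01 among rapamycin mice and 0.10 among PBS mice. Rapamycin replicate 2 was the highest of the rapamycin mice in 7 of 9 members, where 32.6% of all genes had their highest rapamycin value in that mouse. Relative to the PBS mean it stood at 0.46 for Bcl2, 0.24 for Bcl2l11 and 0.19 for Bcl2l1. The survival genes Bcl2 and Bcl2l1 and the gene of their antagonist BIM had their highest values in the same mouse. Mcl1 and Bbc3 were highest in rapamycin replicate 3 instead.

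The CD4 and CD8 lineage genes were measured in the same arrays, and Cd4 was also highest in rapamycin replicate 2. Cd4 measured 11.46, 12.28 and 12.01 in rapamycin mice, against 11.59, 11.70 and 12.05 in PBS mice. Cd8a measured 11.78, 11.76 and 11.71 in rapamycin mice, against 11.57, 11.71 and 11.88 in PBS mice. Rapamycin replicate 2 also had the highest mean of 9 T cell markers, Cd4 among them, of the rapamycin mice, at 11.55 against 11.33 and 11.40. Its means of B cell genes (5.79 against 5.70 and 5.65) and erythroid genes (6.82 against 6.29 and 6.34) were likewise the highest of them. For monocyte and macrophage genes and for NK cell genes the mean peaked in rapamycin replicate 3. In rapamycin replicate 2 the mean of 15 neutrophil and precursor genes was the lowest of the rapamycin mice, at 8.40 against 9.40 and 8.79. Among the pathway lists below, mitochondrial death machinery, death receptors, survival signals and transcription factors also had their highest rapamycin mean there. Further BCL-2 family genes peaked in replicate 3 and MCL1 turnover genes in replicate 1. The part of the CD4 to CD8 proportion in the values of Bcl2, Bcl2l1 and Bcl2l11 was not tested.

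**Figure D3:**
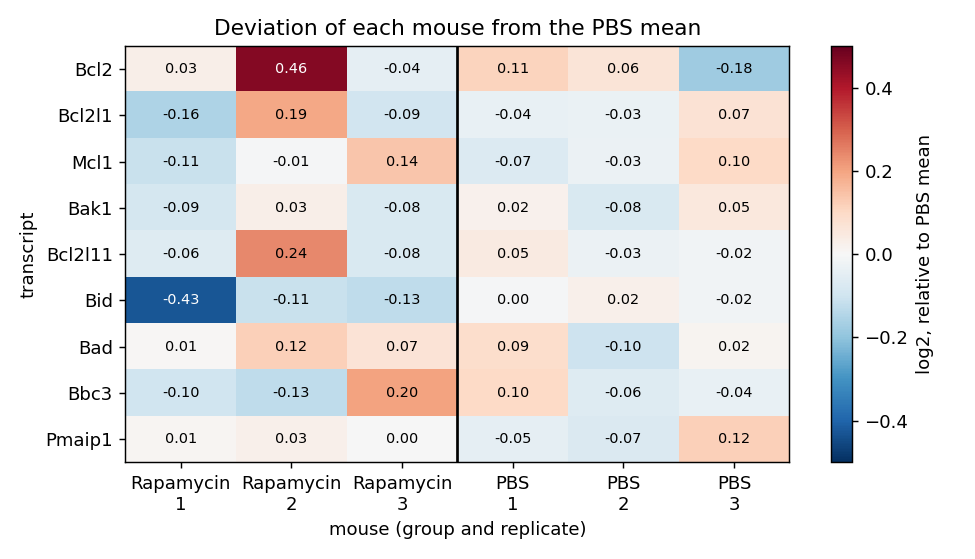
Level of each transcript in each mouse relative to the mean of the PBS mice (log2, printed in each cell and coloured), rapamycin mice left of the line and PBS mice right. Rapamycin replicate 2 stands at 0.46 for Bcl2 and 0.24 for Bcl2l11, and rapamycin replicate 1 at -0.43 for Bid.

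Members were also compared by the root-mean-square distance between their values over the 6 arrays, each centred on its own mean. Bak1 and Pmaip1, which varied least, were nearest to each other at 0.056 log2. This is hardly closer than the 0.058 and 0.060 by which they varied around their own means. Bcl2l1 and Bcl2l11 were each other's nearest member at 0.062 log2, and Bcl2l11 was also the nearest member to Bcl2, at 0.11 log2. Around their own means Bcl2l1 varied by 0.114, Bcl2l11 by 0.108 and Bcl2 by 0.195. Each of these genes had its highest value in rapamycin replicate 2, and the distances without that mouse were not computed. For Mcl1 the nearest member was Pmaip1, at 0.079 log2, hardly closer than the 0.089 by which Mcl1 varied around its own mean. Over all genes, Rnf157 at 0.034 and Mup21 at 0.056 lay closest to Bcl2, Abhd14a at 0.018 and Gtf2f1 at 0.019 closest to Mcl1, and Mir421 at 0.020 and Aqp12 at 0.032 closest to Bcl2l11. Mir421 and Mup21 measured at most 3.13 and 3.81, far below the array medians, and whether they were above background was not tested. These are the nearest of 19938 genes over 6 arrays and describe these mice alone.

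The rest of the family and the steps around it were read from 6 lists of genes, none of which held a member that passed over all genes in either direction. Of 13 measured further BCL-2 family genes, 7 were positive and 6 negative, with a median difference of 0.0005 (all genes -0.01), and 0 had an unadjusted p under 0.05. Bnip3, a mitochondrial BH3-like protein that is induced in hypoxia and promotes mitophagy, measured 6.45, 6.74 and 7.498 in rapamycin mice, against 6.20, 6.55 and 6.37 in PBS mice. Rapamycin replicate 3 lay far above the rest, and the difference was 0.52 (SE 0.24). Bcl2l15, a little-studied relative, differed by 0.15 and Bik, a BH3-only gene, by -0.10. Bcl2l15 measured at most 4.29, far below the array medians, and whether it was above background was not tested.

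Downstream of the mitochondrion, 6 of 16 measured genes were positive and 10 negative, with a median of -0.0097. The groups did not overlap in 3 of the 16, against 9.42% of all genes. Of the 16, 1 had an unadjusted p under 0.05, as did 4.67% of all genes. That gene, Casp9, encodes the initiator caspase that the cytochrome c and APAF1 complex activates. It measured 7.55, 7.54 and 7.55 in rapamycin mice, against 7.85, 7.77 and 7.62 in PBS mice, without overlap, a difference of -0.20 (SE 0.08, unadjusted p 0.0405 and adjusted p 0.9998 in limma's test). Birc2, encoding the ubiquitin ligase cIAP1, differed by 0.15, also without overlap, and Endog, a mitochondrial nuclease, by -0.11.

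In the death receptor branch, which BID joins to the mitochondrion, 8 of 11 measured genes were positive and 3 negative, with a median of 0.08. The smallest p values belonged to negative differences. Ripk3, the kinase that drives necroptosis, measured 8.83, 8.90 and 9.002 in rapamycin mice, against 9.26, 9.13 and 9.35 in PBS mice. The difference was -0.34 (SE 0.09, unadjusted p 0.00478 and adjusted p 0.911 in limma's test). Tradd, an adaptor of TNF receptor signalling, measured 8.67, 8.47 and 8.60 in rapamycin mice, against 8.87, 8.84 and 8.91 in PBS mice, a difference of -0.29 (SE 0.08, adjusted p 0.967 in limma's test). Ripk3 and Tradd were the 2 genes of these 11 whose groups did not overlap. Both had rapamycin on the lower side, against 6.28% of all genes. They were also the 2 of these 11 with an unadjusted p under 0.05, against 4.67% of all genes. The TNF receptor gene Tnfrsf1a differed by 0.16, with overlapping groups.

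Of 13 measured genes of survival signals upstream, 7 were positive and 6 negative, with a median of 0.0010. Of these 13, 2 had an unadjusted p under 0.05, against 4.67% of all genes. The groups did not overlap in 4, against 9.42% of all genes. Il2ra, the alpha chain that gives the IL-2 receptor high affinity, measured 10.68, 11.04 and 10.73 in rapamycin mice, against 10.33, 10.63 and 10.37 in PBS mice. All rapamycin mice lay above all PBS mice, by 0.37 on average (SE 0.12, adjusted p 0.982 in limma's test). Il15ra, the receptor chain that presents IL-15, differed by 0.25 (SE 0.10), likewise without overlap. Il2rb, the signalling chain that IL-2 and IL-15 share, lay on the other side, at 12.67, 12.73 and 12.70 in rapamycin mice against 12.86, 12.83 and 12.85 in PBS mice, a difference of -0.15 (SE 0.07). None of these 3 passed, and the subunits did not lie to the same side.

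Among 9 measured transcription factors and upstream regulators of BH3-only genes, 4 were positive and 5 negative, with a median of -0.03. The groups did not overlap in 2 of these 9, against 9.42% of all genes. An unadjusted p under 0.05 belonged to 1 of them, against 4.67% of all genes. Foxo1, one of the FOXO factors whose motif is capitalised above, measured 9.02, 8.86 and 8.75 in rapamycin mice, against 9.20, 9.15 and 9.10 in PBS mice. The groups did not overlap, and the difference was -0.27 (SE 0.09, unadjusted p 0.0152 and adjusted p 0.982 in limma's test). AKT acts on FOXO proteins after translation, which these values do not measure. Myc, which drives growth and sensitises cells to apoptosis, differed by 0.39 (SE 0.17), with its highest value of 10.51 in rapamycin replicate 2. Jun, a component of AP-1, differed by 0.14. Of 7 measured genes of MCL1 protein turnover, 3 were positive and 4 negative, with a median of -0.05, and 0 had an unadjusted p under 0.05. Gsk3b, the kinase that marks MCL1 for degradation, differed by -0.14. It was the 1 gene of these 7 whose groups did not overlap, against 9.42% of all genes. Cdc20, an activator of the mitotic ubiquitin ligase, differed by -0.18 and Fbxw7, a ubiquitin ligase subunit that binds MCL1, by -0.11, both with overlap.

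**Figure D4:**
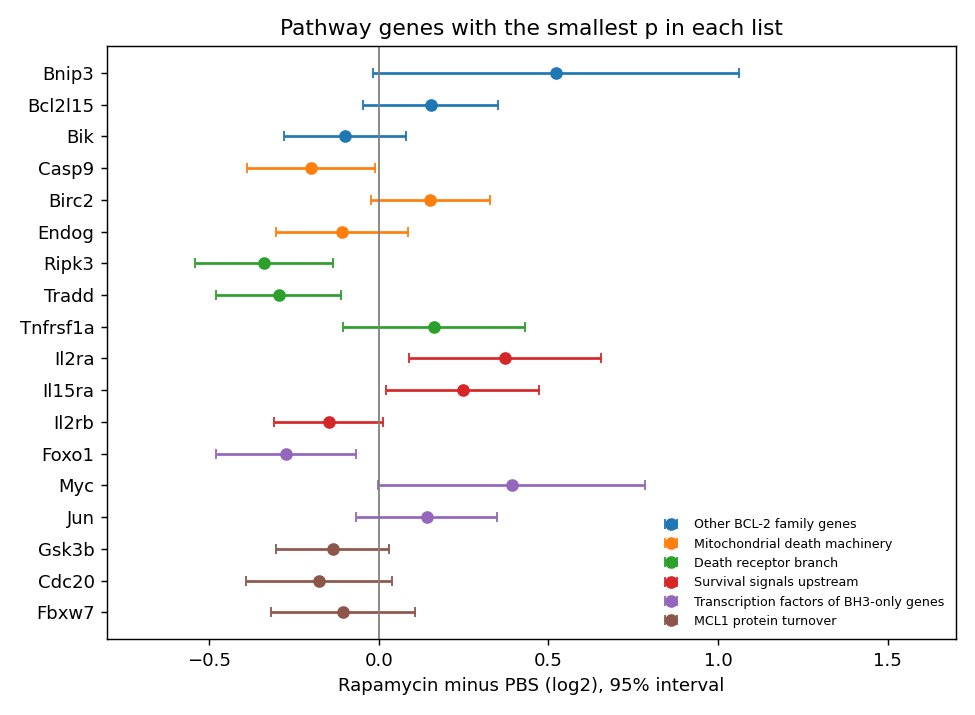
Difference (rapamycin minus PBS, log2, points) with its 95% interval (bars) for 3 genes from each of 6 pathway lists, those of lowest p, coloured by list. None passed over all genes; the lowest points are Ripk3 at -0.34 and Tradd at -0.29, and the highest is Bnip3 at 0.52.

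The T cell gene Cd3e measured 12.84 ± 0.07 with rapamycin and 12.87 ± 0.05 with PBS (SD, n = 3 each). Such levels do not measure the purity of the sort. The neutrophil gene Lcn2 measured 12.84, 12.34 and 12.75 in rapamycin mice, against 12.76, 12.17 and 11.67 in PBS mice. The mean of 9 measured T cell markers lay between 11.33 and 11.55 in rapamycin mice and between 11.34 and 11.57 in PBS mice. Markers of other cells were measured as well, and their part in the values above was not tested. Of 15 neutrophil and granulocytic precursor genes 14 were positive, with a median difference of 0.44. Their mean was 9.40, 8.40 and 8.79 in rapamycin mice and 9.07, 8.63 and 7.85 in PBS mice, with the highest in rapamycin replicate 1, the mouse with the lowest Bid value. PBS replicate 1 had the next highest neutrophil mean, and its Bid value of 7.96 lay between those of the other PBS mice. Of 7 B cell genes 4 were positive and 3 negative, with a median difference of 0.0069. Their mean lay between 5.65 and 5.79 with rapamycin and between 5.79 and 5.98 with PBS, and the groups only just failed to overlap. All these means lay below the array medians of 6.03 to 6.17, and the lowest mean of a marker was 3.90. Whether these probe sets were above background was not tested. The other lists overlapped between the groups. For 7 monocyte and macrophage genes the ranges were 8.57 to 9.29 with rapamycin and 8.81 to 9.17 with PBS. For 4 erythroid genes they were 6.29 to 6.82 with rapamycin and 6.01 to 6.51 with PBS, with 3 positive differences. Of 6 NK cell genes 1 was positive and 5 negative, with a median difference of -0.25. Their mean lay between 7.84 and 8.06 with rapamycin and between 7.83 and 8.36 with PBS. An unadjusted p under 0.05 belonged to 2 of 6 NK cell, 2 of 7 B cell and 2 of 7 monocyte and macrophage genes. It also belonged to 1 of 9 T cell genes. In the neutrophil and erythroid lists 0 genes had an unadjusted p under 0.05. Over all genes the share was 4.67%.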

How the data were processed

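The deposited values are log2 expression, which the authors made with Affymetrix Expression Console and RMA, per the submitters' processing notes. Their versions, the summary level and the genome build were not given in the sources. RMA subtracts background and equalises the arrays' distributions, so a shift shared by most genes would not be seen. Of 35556 probe sets, 21789 had exactly 1 symbol in the platform's probe table, and a gene with several such probe sets was represented by that of highest mean across the 6 arrays. Of these, 21698 were found by identifier in a RefSeq table of GRCm38.p6, which altered 0 symbols. Groups and replicate numbers came from sample titles.

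A linear model with a group term alone was fitted to each gene with limma 3.58.1 in R 4.3.3 (functions lmFit and eBayes), and its two-sided p values were adjusted by Benjamini-Hochberg over 19938 genes, with a call at an adjusted p under 0.05. The fit was also run on simulated data whose added changes were larger than any member's difference. Changes of the members' size were not checked there. Figures used Python 3.11.15 and matplotlib 3.10.9. The members, the gene lists and the rule for named genes (in each list, those past the threshold or otherwise the 3 with the smallest p) were chosen with earlier results of these data known, and no list was tested as a set. Cd4, Cd8a, Cd3e, Lcn2 and Glp1r were named outside that rule. Alternatives were other moderation, array weights, a filter on the lowest 50% of genes, the mean of probe sets, repeated normalization, median centring, a replicate block and leaving out each array. The number of arrays limits the precision.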

Additional observations from a re-analysis of the deposited data

How the results depend on the processing

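Over 14 alternatives, 0 of the 9 BCL-2 family members passed an adjusted p of 0.05, and the lowest unadjusted p of any of them was 0.0378, for Bid without rapamycin replicate 2. Bid, Bak1 and Bad kept their direction in all 14. The other moderation settings, the filter, the mean of probe sets and the replicate block cannot alter a member's difference, so agreement there carries no information. With array weights Bcl2l1 turned to 0.014 and Bbc3 to 0.0096, and Bbc3 also turned with repeated quantile normalization (0.0067) and median centring (0.0076). These settings moved the median of all genes by at most 0.016. Bbc3 fell below the filter on low values and has no value there. With each mouse left out in turn, the differences ranged from -0.0080 to 0.24 for Bcl2, -0.13 to 0.049 for Bcl2l1, -0.060 to 0.065 for Mcl1, -0.070 to 0.089 for Bcl2l11, -0.082 to -0.017 for Bak1, -0.28 to -0.12 for Bid, 0.012 to 0.11 for Bad, -0.11 to 0.051 for Bbc3 and -0.025 to 0.069 for Pmaip1. Over all genes, 1 passed, against 0 to 7 with a mouse left out: 7 without rapamycin replicate 1 and 0 without any other mouse. Same-numbered mice of the groups did not deviate together (correlations 0.086, -0.19 and 0.19), so the numbers were not taken as pairs. With the replicate block 0 genes passed, and the members' differences were as without it, which the balanced design fixes in advance.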
